A study of Mus musculus with 12 samples.

Results

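Adjacent normal colon of ApcMin/+ mice was compared at 4 against 3 months of age, across all genes, in 4 of the 12 RNA sequencing libraries of the study. Members were taken by their labels: the WT and KO libraries of tissue N at 4 months, and the WT and KO libraries of tissue N at 3 months. All mice were C57BL/6 and carried ApcMin/+, a truncating allele of the tumor suppressor Apc that causes intestinal adenomas, so both ages are tissue of adenoma-bearing animals. WT stands for Cul4bWT and KO for Cul4bdeltaIEC, in which Cul4b, a scaffold of CRL4 ubiquitin ligases, is deleted in the intestinal epithelium; the other cells of the tissue keep the gene. In the labels, T was taken to mean adenoma and N the normal colon beside it. Each genotype had 1 library at each age, so each age had 2 libraries, 1 of each genotype, and genotype was the block of the comparison. The labels give neither the animal of each library nor the site along the colon from which the tissue was cut. P-values thus measure only the spread between these libraries, and age, animal and site cannot be told apart.

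The colon differs along its length. Hox genes, which encode transcription factors that mark position along the body axis, keep ordered domains in the adult gut: genes of high paralog number, such as the group 13 genes, mark the distal colon and rectum, and genes of lower number mark more proximal gut. Epithelial products follow the same axis, with bile acid carriers towards the ileum and caecum and the hormone Insl5 towards the rectum. The wall is also layered, so a piece of colon holds epithelium, lamina propria with its immune cells, and smooth muscle with its nerves and pacemaker cells, in proportions that depend on how it was cut.

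The 4 libraries held 20308130 to 22273348 reads in genes. Levels are in FPKM, the fragments per kilobase of a gene relative to a total for the library. Differences are log2 units of FPKM + 1, a scale on which genes of low level show too small a change. For a gene 2 kilobases long, 3 reads made up 0.0774 to 0.0922 FPKM, a floor that covers counting error only. Cul4b (chromosome X, 38533274 to 38576196, mm10), the deleted gene, was at 13.7 FPKM in WT and 2.99 FPKM in KO at 3 months, and at 15.0 FPKM in WT and 1.38 FPKM in KO at 4 months. It was lower in KO than in WT at both ages, as labelled, and its age difference was -0.31 log2 units (SE 0.26, limma with Benjamini-Hochberg adjustment, adjusted p = 0.83). One library stood apart: the KO library of 3 months held the highest summed level of smooth muscle, B cell, plasma cell and fibroblast markers, as given below.

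Levels of Hoxa13, Hoxb13, Insl5 and Atp12a, 4 of 8 tested distal colon genes, were at least 2-fold lower at 4 months in both genotypes. Of those 8, Scnn1b and Hoxd10 were higher. Levels of Hoxb4 to Hoxb8 and of the bile acid transporter genes Slc10a2 and Slc51a were higher. Of 19 tested smooth muscle genes, 17 had both libraries of 4 months below both of 3 months, against 2990 of all 14897 tested genes (20.1%). With 14897 genes tested and 1 residual degree of freedom, none passed an adjusted p of 0.05 in either direction (limma with Benjamini-Hochberg adjustment), a share of 0.0% each way. At an unadjusted p under 0.05 there were 1424 genes (9.56%), of which 708 were higher (4.75%) and 716 lower (4.81%). The same contrast called 57 genes higher (0.383%) and 102 lower (0.685%) with voom weights on the recovered reads, 19 (0.128%) and 27 (0.181%) with all 12 libraries in the fit, and 5 (0.0336%) and 6 (0.0403%) with the 8 libraries of the same table. The 5 higher genes of the last fit, listed after their values were seen, were Xpnpep2, Ces2b, Enpep, Naaladl1 and the immunoglobulin segment Igkv6-25, and Hoxa13, Clca1 and Crisp3 were among the 6 lower. Without any 1 of the 4 libraries of N, the 8-library fit called 0 genes.

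As a description with no test, 86 genes (0.577%) were at least 2-fold higher and 108 (0.725%) at least 2-fold lower at 4 months in both genotypes, with at least 5 FPKM in the higher age. The libraries of 4 months lay wholly above those of 3 months for 3329 genes (22.3%) and wholly below for 2990 (20.1%). These shares are the background against which the counts of the gene groups below are read. The median difference over all tested genes was 0.01, with -0.02 in WT and 0.04 in KO. Across genes, the age difference in WT and the age difference in KO correlated with r = 0.373 over 14897 genes; genes of a library share its makeup, and no p is given.

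**Figure D1:**
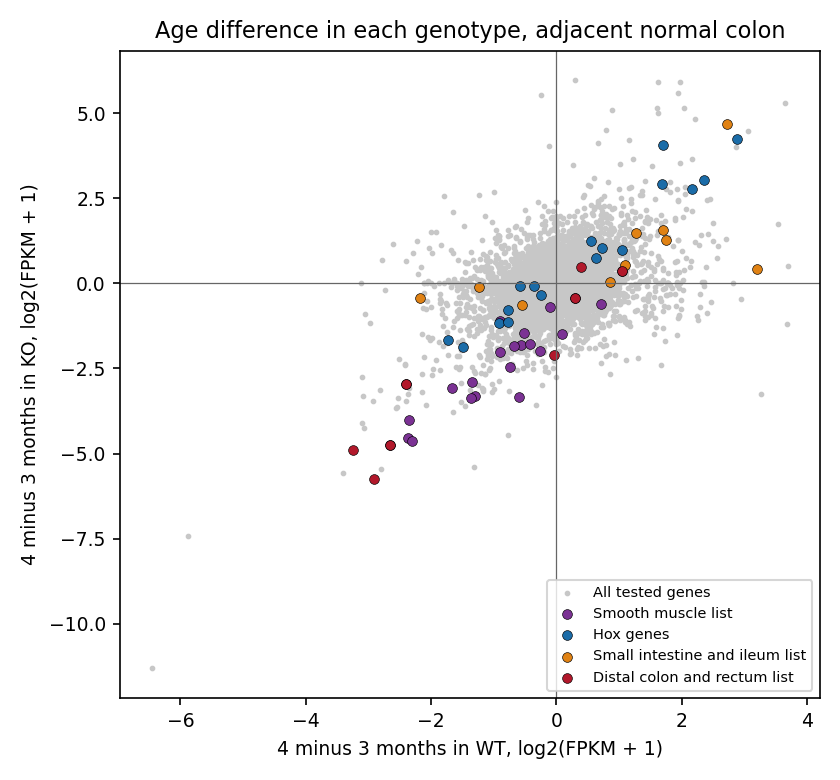
Age difference (4 minus 3 months, log2 of FPKM + 1) in WT on the x axis and in KO on the y axis, 1 grey point per tested gene (14897), with 4 gene lists in color; genes in both position lists are drawn in the color of the distal list. Smooth muscle genes lie mostly below 0 on both axes and farther from 0 in KO, and the Hox genes split between the upper right and the lower left.

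Of the 39 Hox genes, 21 were high enough to be tested, 9 of them were higher and 7 lower at an unadjusted p under 0.05 (limma), and 5 were at least 2-fold higher and 4 at least 2-fold lower in both genotypes. Hoxa13 (chromosome 6, 52257694 to 52260880, mm10), a marker of the distal end of the gut, was at 21.0 FPKM in WT and 17.8 FPKM in KO at 3 months, and at 3.15 and 1.41 FPKM at 4 months. Hoxb13 (chromosome 11, 96194316 to 96197447), its counterpart in the Hoxb cluster, was at 28.0 and 59.3 FPKM at 3 months and at 3.60 and 1.22 FPKM at 4 months. Both libraries of 4 months were below both of 3 months for both genes, with differences of -2.68 (SE 0.20) for Hoxa13 and -3.71 (SE 0.53) for Hoxb13. The adjusted p was 0.14 for Hoxa13 and 0.21 for Hoxb13 (limma with Benjamini-Hochberg adjustment).

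Of the other Hoxa genes, Hoxa9 and Hoxa10 were at least 2-fold lower in both genotypes, and Hoxa11, the neighbour of Hoxa13, was lower by less. Hoxa10 was at 21.4 and 16.3 FPKM at 3 months in WT and KO and at 6.996 and 3.73 FPKM at 4 months (difference -1.68, SE 0.18). Hoxa9 was at 18.7 and 11.7 FPKM at 3 months and at 4.97 and 3.04 FPKM at 4 months (difference -1.69, SE 0.15). Hoxa5 differed by -1.04, Hoxa6 by -0.95 and Hoxa11 by -0.79, each with the ages apart. Hoxa7 differed by only -0.33, at 14.9 and 8.69 FPKM at 3 months and 9.58 and 8.14 FPKM at 4 months, with the ages overlapping.

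The middle Hoxb genes went the other way. Hoxb6 (chromosome 11, 96292476 to 96301569, mm10) was at 5.16 FPKM in WT and 1.97 FPKM in KO at 3 months, and at 44.5 and 55.2 FPKM at 4 months, a difference of 3.56 (SE 0.37; limma with Benjamini-Hochberg adjustment, adjusted p = 0.16). Hoxb7 was at 5.41 and 0.869 FPKM at 3 months and at 19.9 and 30.0 FPKM at 4 months. Hoxb4 was at 0.862 and 0.503 FPKM and then at 8.51 and 11.4 FPKM. Hoxb5 and Hoxb8 shifted alike, by 2.30 and 2.47, and Hoxb9, the gene beside them on the posterior side, by 0.90. In all of these the 4-month libraries were the higher ones. Hoxb13, which lies in the same cluster, was the only Hoxb gene tested that was lower at 4 months.

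In the Hoxd cluster, Hoxd8 differed by 1.01 and Hoxd9 and Hoxd10 by 0.69 each, with both libraries of 4 months above both of 3 months. Hoxd13, the group 13 gene of that cluster, did not share the pattern of Hoxa13 and Hoxb13. It was at 1.34 and 3.20 FPKM at 3 months and at 1.88 and 2.13 FPKM at 4 months, with overlapping ages and a difference of -0.06 (SE 0.24) whose sign was positive in WT (0.30) and negative in KO (-0.42). Hoxc12, Hoxc13 and Hoxb1 had 0 reads in all 4 libraries. Hox clusters hold antisense transcripts, and the strand setting of the counting is not given in the sources used here, so reads of overlapping transcripts cannot be told apart.

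**Figure D2:**
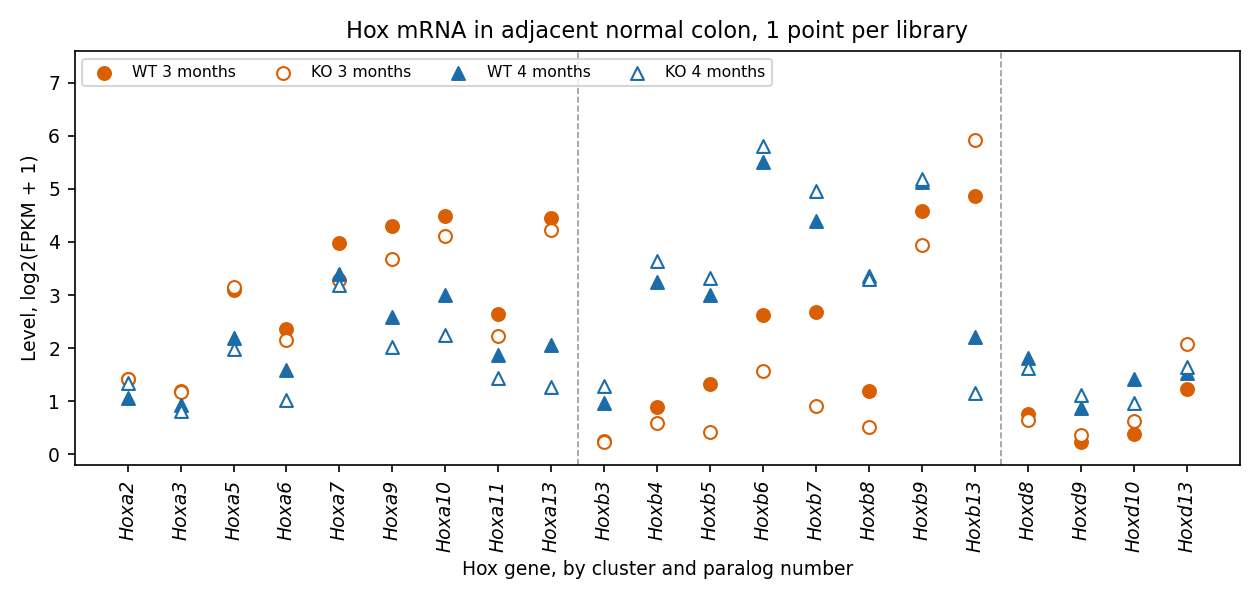
Level of the 21 tested Hox genes, as log2 of FPKM + 1 on the y axis, ordered by cluster and paralog number on the x axis, with 1 point per library (circles 3 months, triangles 4 months, filled WT, open KO). The triangles lie below the circles for Hoxa9, Hoxa10, Hoxa13 and Hoxb13 and above them for Hoxb3 to Hoxb9.

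The ratio of Hoxb6 to Hoxa13, computed on FPKM + 0.1 and chosen after the values were seen, puts the shift into 1 value per library. It was 0.250 in WT and 0.116 in KO at 3 months, and 13.7 and 36.6 at 4 months. In the adjacent normal libraries of 5 months, which were normalized in another table, it was 0.997 in WT and 4.53 in KO, between the 2 younger ages. In the 6 adenoma libraries of all ages it was at most 0.0744. Other ratios placed 5 months differently. Hoxb6 over Hoxb13 was 7.97 in WT and 31.5 in KO at 5 months, nearer to 12.05 and 41.8 at 4 months than to 0.187 and 0.0349 at 3 months. Hoxa7 over Hoxa13 was 0.621 in WT at 5 months, below 0.709 at 3 months and 2.98 at 4 months. In KO the same ratio was 1.37 at 5 months, between 0.491 at 3 months and 5.45 at 4 months.

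Of 12 genes listed for distal colon and rectum, 8 were tested, and 1 was higher and 4 lower at an unadjusted p under 0.05 (limma), with a median difference of -1.88 beside 0.01 over all genes. The 4 were Hoxa13, Hoxb13, Insl5 and Atp12a. Insl5, a hormone of distal enteroendocrine cells, was at 164 and 342 FPKM at 3 months and at 16.3 and 10.5 FPKM at 4 months (difference -4.08, SE 0.44). Atp12a, the colonic proton-potassium pump, was at 24.5 and 92.2 FPKM at 3 months and at 2.40 and 0.729 FPKM at 4 months (difference -4.33, SE 0.71). Both were at least 2-fold lower in each genotype. Scnn1b, a subunit of the epithelial sodium channel, was higher by 0.44, with 2.59 and 2.33 FPKM at 3 months and 3.72 and 3.68 FPKM at 4 months. Hoxd10 was higher by 0.69 and Hoxd13 differed by -0.06. Fxyd4, the remaining gene, differed by -0.03 in WT and -2.10 in KO.

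Of 16 genes listed for small intestine and ileum, 10 were tested, 5 were higher and 2 lower at an unadjusted p under 0.05 (limma), and the median was 1.10. Of the 10, 7 had a difference above 0, and 3 had both libraries of 4 months below both of 3 months. The summed level of the list went opposite ways, from 269 to 181 FPKM in WT and from 151 to 244 FPKM in KO. Slc10a2, the bile acid importer of the ileum, was at 6.74 and 1.16 FPKM at 3 months and at 49.7 and 54.6 FPKM at 4 months (difference 3.70, SE 0.50). Its partner on the basolateral side, the exporter subunit Slc51a, was at 2.46 and 0.226 FPKM at 3 months and at 42.3 and 46.9 FPKM at 4 months (difference 4.47, SE 0.43). Slc51b, the other subunit, was at 189 and 80.7 FPKM and then at 282 and 338 FPKM. All 3 had the 4-month libraries above the 3-month libraries in both genotypes. Slc51a and Slc51b were listed under colonocytes and are not among the 16 genes or their counts.

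Fabp6, the ileal bile acid binding protein, was higher within each genotype, but its ages overlapped: 10.8 FPKM in WT and 41.7 FPKM in KO at 3 months, and 38.8 and 103 FPKM at 4 months. Fabp1, a fatty acid binding protein, was at 1.0 and 0.187 FPKM and then at 5.53 and 2.54 FPKM (difference 1.64). Alpi, intestinal alkaline phosphatase, was at 1.58 and 0.442 FPKM and then at 5.24 and 3.01 FPKM, and the apolipoprotein gene Apoa1 was at 0 and 0.0835 FPKM and then at 8.23 and 0.455 FPKM. Mttp, which loads lipid onto lipoproteins, differed by 0.82. Sucrase-isomaltase, Sis, was under the filter, at 0.140 and 0.0346 FPKM at 3 months and at 0.994 and 0.762 FPKM at 4 months, and Lct and Apoa4 were under 1 FPKM in all 4 libraries. Clca4a, a chloride channel regulator on the same list, was lower, at 230 and 91.8 FPKM at 3 months and 50.2 and 68.0 FPKM at 4 months.

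Among 14 regional transcription factors of the gut, 9 were tested and 3 were higher at an unadjusted p under 0.05 (limma), with none lower. Osr2 (chromosome 15, 35296098 to 35303304, mm10) was at 2.46 and 0.419 FPKM at 3 months and at 27.8 and 30.6 FPKM at 4 months (difference 3.77, SE 0.38). Isx, an intestinal homeobox factor that acts on vitamin A uptake, was at 16.6 and 7.28 FPKM and then at 60.9 and 63.6 FPKM (difference 2.39, SE 0.33). The general intestinal factor Cdx2 differed by 0.73 and Cdx1 by 0.15.

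Several of the most abundant epithelial mRNAs differed by age. Mptx1 (chromosome 1, 174330518 to 174332873, mm10), a mucosal pentraxin, had the largest difference of the genes named here: 3172 FPKM in WT and 23965 FPKM in KO at 3 months, and 35.3 and 8.45 FPKM at 4 months (difference -8.88, SE 1.21). Ang4, an antimicrobial angiogenin of secretory cells, was at 4722 and 7742 FPKM at 3 months and at 79.4 and 44.7 FPKM at 4 months (difference -6.64, SE 0.48). The ages did not overlap for either gene. Lyz1, a lysozyme of Paneth cells, was at 80.0 and 58.1 FPKM and then at 36.1 and 24.5 FPKM.

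Reg3b and Reg3g, secreted lectins with antimicrobial roles, were higher at 4 months. Reg3b was at 6538 FPKM in WT and 608 FPKM in KO at 3 months and at 25635 and 36607 FPKM at 4 months (difference 3.94, SE 1.10). Reg3g was at 489 and 88.9 FPKM and then at 2007 and 3213 FPKM (difference 3.60, SE 0.82). The KO library of 3 months was the lowest of the 4 for both. The whole list of 16 antimicrobial and inflamed epithelium genes did not move one way: 5 were higher and 5 lower at an unadjusted p under 0.05 (limma), with a median of -0.29.

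Of 13 goblet cell genes, all tested, 3 were lower and none higher at an unadjusted p under 0.05 (limma), and the median was -0.18. The 3 were Ang4, Clca1 and Fcgbp, and the last pair are components of secreted mucus. Clca1 was at 1878 and 2832 FPKM at 3 months and at 350 and 537 FPKM at 4 months (difference -2.41, SE 0.33). Fcgbp was at 153 and 234 FPKM and then at 80.1 and 75.6 FPKM. Muc2, the main mucin of goblet cells, had overlapping ages, at 1171 and 607 FPKM at 3 months and 1040 and 984 FPKM at 4 months. Spink4 was at 11460 and 14750 FPKM at 3 months and at 4978 and 6017 FPKM at 4 months.

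The 20 colonocyte genes, which include Slc51a and Slc51b given above, were split, with 7 higher and 2 lower at an unadjusted p under 0.05 (limma). Car1, a carbonic anhydrase of surface colonocytes, was at 4160 FPKM in WT and 324 FPKM in KO at 3 months and at 12838 and 19397 FPKM at 4 months (difference 3.76, SE 1.14). Slc26a3, the chloride-bicarbonate exchanger, was at 106 and 103 FPKM at 3 months and at 29.6 and 28.1 FPKM at 4 months (difference -1.82, SE 0.19), nearly the same in both genotypes. The water channel Aqp8 was at 688 and 334 FPKM and then at 172 and 207 FPKM. The ages were apart for Car1, Slc26a3 and Aqp8.

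Of 11 tested enteroendocrine genes, 4 were higher and 2 lower at an unadjusted p under 0.05 (limma), and the lower ones were Insl5, given above, and Scg2. Scg2, a secretogranin also found in neurons, was at 0.904 and 3.94 FPKM at 3 months and at 0.268 and 0.425 FPKM at 4 months. Pyy, the hormone peptide YY, differed by -0.59 with the ages apart. Chga, a granule protein of most enteroendocrine cells, was at 10.04 and 7.30 FPKM at 3 months and at 23.7 and 20.7 FPKM at 4 months (difference 1.28, SE 0.17). Nts, which encodes the gut peptide neurotensin, was at 31.9 and 2.52 FPKM and then at 150 and 99.8 FPKM (difference 3.52, SE 0.66). The ages were apart for both genes.

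Of 21 xenobiotic genes, which encode enzymes and carriers of detoxification, 16 were tested, and 8 were higher and 1 lower at an unadjusted p under 0.05 (limma), with a median of 0.95 (0.50 in WT and 1.38 in KO). Cyp2c55, a cytochrome P450 of colon epithelium, was at 285 and 27.2 FPKM at 3 months and at 880 and 904 FPKM at 4 months (difference 3.31, SE 0.86). The carboxylesterase Ces1g was at 3.91 and 1.53 FPKM and then at 21.0 and 30.9 FPKM, and Ces2a was at 35.0 and 22.9 FPKM and then at 97.0 and 90.9 FPKM. The lower gene was Gsta3, a glutathione transferase, with a difference of -1.24.

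Of the 14 tested genes of PPAR targets and fatty acid oxidation, all had a difference above 0. Both libraries of 4 months lay above both of 3 months for 13 of them, against 22.3% of all tested genes. At an unadjusted p under 0.05 (limma) 5 were higher. The median difference was 0.53, and that of the same list in adenoma was 0.70. Acaa1b, a peroxisomal thiolase, was at 0.313 and 0.105 FPKM and then at 4.05 and 4.96 FPKM. Cpt1a, which carries fatty acids into mitochondria, differed by 0.43.

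Further genes with at least 2-fold shifts in both genotypes were named by the size of the smaller shift. Higher at 4 months were the peptidases Xpnpep2 (0.403 and 0.243 FPKM, then 6.65 and 5.93 FPKM) and Enpep (0.640 and 0.801 FPKM, then 5.85 and 7.10 FPKM). Vnn1, a pantetheinase, was at 0.916 and 0.577 FPKM and then at 12.9 and 24.6 FPKM, and the carboxylesterase Ces2b was at 1.15 and 1.38 FPKM and then at 10.3 and 12.02 FPKM. These 4 genes were at most at 1.38 FPKM at 3 months in both genotypes. Lower at 4 months were Gsdmcl2, annotated as a transcribed pseudogene of the gasdermin C family (40.3 and 69.0 FPKM, then 3.81 and 3.10 FPKM), and the phospholipase gene Pla2g4c (18.4 and 29.5 FPKM, then 1.55 and 1.77 FPKM). Gsdmcl2, the carboxylesterases, Ang4, Mptx1 and the Reg3 genes have close paralogs, and reads may have been divided between the copies. Crisp3 (14.1 and 9.54 FPKM, then 1.13 and 0.199 FPKM), Sval1 (691 and 2634 FPKM, then 98.1 and 59.1 FPKM), Nxpe4 (12.3 and 20.5 FPKM, then 1.25 and 0.705 FPKM) and the pseudogene Ear-ps3 (8.56 and 7.42 FPKM, then 0.117 and 0.253 FPKM) were lower as well.

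Most smooth muscle genes were lower at 4 months in both genotypes. The median difference was farther from 0 in KO, which was not tested, since each genotype has 1 library at each age. In bulk tissue, fewer cells of a type and less RNA per cell cannot be told apart. Of 20 smooth muscle genes 19 were tested, 15 were lower and none higher at an unadjusted p under 0.05 (limma), 7 were at least 2-fold lower in both genotypes, and 17 had the ages apart. The median difference was -1.46, with -0.74 in WT and -2.02 in KO. Summed over the list, the level came to 184 FPKM in WT and 911 FPKM in KO at 3 months, and 63.4 and 80.9 FPKM at 4 months, so the KO library of 3 months stood far above the other three. In WT alone the direction was the same.

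Actg2, enteric smooth muscle actin, was at 29.7 FPKM in WT and 192 FPKM in KO at 3 months and at 4.96 and 7.27 FPKM at 4 months (difference -3.45, SE 0.55). Des, desmin of the muscle cytoskeleton, was at 17.1 and 103 FPKM and then at 2.67 and 3.22 FPKM (difference -3.46, SE 0.59). Cnn1, the actin-binding calponin, was at 16.1 and 93.9 FPKM and then at 2.35 and 4.92 FPKM (difference -3.18, SE 0.43). All 3 had both libraries of 3 months above both of 4 months. Acta2, Myl9, Tpm2 and Myh11, which encode actin, myosin and tropomyosin chains, differed by -2.31, -2.12, -2.36 and -2.38. The adjusted p of these 7 genes was 0.20 to 0.33 (limma with Benjamini-Hochberg adjustment).

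**Figure D3:**
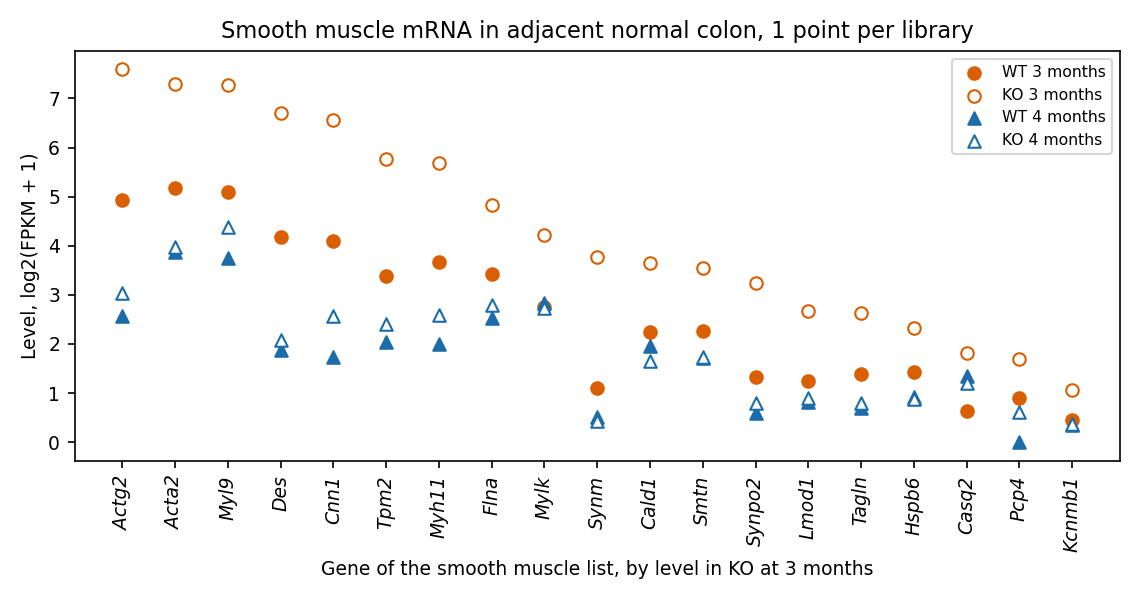
Level of the 19 tested smooth muscle genes, as log2 of FPKM + 1 on the y axis, ordered on the x axis by the level in the KO library of 3 months, with 1 point per library (circles 3 months, triangles 4 months, filled WT, open KO). The open circles lie highest for every gene, and the filled circles lie above both triangles for most.

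Since the muscle genes differed together, the 250 bases before the annotated start of 3 of them are shown, on the gene's own strand, from RefSeq on build GRCm38.p6. The search was for the CArG box, the element bound by serum response factor, which is known to drive contractile genes. Only an exact pattern counted as a match: CC, then only A or T, then GG, 10 bases in all, on either strand. Capitals mark a match.
Myl9, chr2:156775214-156775463, plus strand: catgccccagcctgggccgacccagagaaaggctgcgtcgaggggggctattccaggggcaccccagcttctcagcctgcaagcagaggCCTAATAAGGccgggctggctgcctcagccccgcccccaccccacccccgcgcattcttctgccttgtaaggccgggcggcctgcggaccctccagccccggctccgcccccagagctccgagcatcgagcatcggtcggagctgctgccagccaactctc
Cnn1, chr9:22099003-22099252, plus strand: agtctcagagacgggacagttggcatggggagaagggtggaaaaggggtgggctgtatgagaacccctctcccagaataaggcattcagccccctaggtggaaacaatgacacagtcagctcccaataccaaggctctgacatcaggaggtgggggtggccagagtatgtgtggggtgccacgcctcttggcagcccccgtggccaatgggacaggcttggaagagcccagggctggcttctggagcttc
Acta2, chr19:34255374-34255623, minus strand: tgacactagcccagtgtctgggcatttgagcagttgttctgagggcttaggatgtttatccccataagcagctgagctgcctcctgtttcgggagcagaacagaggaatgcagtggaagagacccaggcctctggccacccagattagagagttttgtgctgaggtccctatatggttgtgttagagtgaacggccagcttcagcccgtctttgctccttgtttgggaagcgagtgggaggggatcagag
Myl9 held 1 exact match, starting 161 bases before the start, and Cnn1 and Acta2 held no exact match in this window. Boxes that differ from the pattern by 1 base were not searched for. The Acta2 sequence holds such stretches, ccctatatgg and ccttgtttgg, so the counts here do not cover all CArG boxes. Of the 20 smooth muscle genes, 16 had an entry in the RefSeq table, and 1 of the 16 (6.25%) held a match, against 439 of 27025 gene symbols (1.62%) in the same window. A match describes letters in this window and not binding, and a window without one says nothing of the factor.

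Lists of other cells of the wall did not all share the direction of smooth muscle. Among 6 genes listed for interstitial cells of Cajal, the pacemakers of gut muscle, 4 were tested. Ano1, their chloride channel, was at 13.0 and 19.9 FPKM at 3 months and at 5.80 and 4.07 FPKM at 4 months, and Thbs4, a matrix protein on that list, was at 50.6 and 70.2 FPKM and then at 13.3 and 11.1 FPKM (difference -2.21, SE 0.24). Kit, the receptor that defines these cells and is also found in mast cells, was level, at 4.59 and 3.77 FPKM and then at 4.81 and 3.99 FPKM. The neuropeptide gene Vip was at 2.24 and 16.0 FPKM at 3 months and at 0.0305 and 0.232 FPKM at 4 months. Of 6 tested enteric neuron genes 5 were lower with the ages apart, but only 1 at an unadjusted p under 0.05 (limma). Their median was -0.17 in WT and -1.25 in KO. All 9 tested adipocyte genes had a difference above 0, with a median of 0.41 and 2 higher and none lower at an unadjusted p under 0.05 (limma). Of these, Adipoq, the adipocyte hormone adiponectin, was at 0.134 and 0.822 FPKM at 3 months and at 0.977 and 5.38 FPKM at 4 months. Summed over the adipocyte list, levels came to 31.0 in WT and 34.4 FPKM in KO at 3 months, and 36.1 and 62.9 FPKM at 4 months. The KO library of 4 months was thus far the highest. In adenoma the median age difference of this list was 0.39. Of 7 enteric glia genes 2 were tested, and Erbb3, which epithelium also expresses, differed by 0.34.

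Fibroblast and matrix genes had a median of -0.75 (-0.33 in WT and -1.20 in KO), with 8 of 16 tested lower and none higher at an unadjusted p under 0.05 (limma). Fn1, fibronectin, was at 8.21 and 14.0 FPKM at 3 months and at 3.35 and 2.91 FPKM at 4 months. Grem1, a BMP antagonist of stromal cells, was at 7.32 and 22.5 FPKM and then at 2.65 and 1.76 FPKM. Summed over the list, levels came to 159 in WT and 333 FPKM in KO at 3 months, and 118 and 112 FPKM at 4 months. Lyve1, a receptor of lymphatic endothelium, was at 5.88 and 12.4 FPKM and then at 2.33 and 1.77 FPKM. The part of the muscle and stromal share in the differences of the epithelial and Hox genes was not tested.

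Immune genes did not share 1 direction. Gzma and Gzmb, granzymes of cytotoxic lymphocytes, were higher at 4 months in both genotypes. Gzma was at 43.5 FPKM in WT and 22.5 FPKM in KO at 3 months and at 164 and 85.1 FPKM at 4 months (difference 1.88, SE 0.19), and Gzmb was at 5.82 and 3.88 FPKM and then at 22.5 and 11.6 FPKM (difference 1.57, SE 0.19). The 13 tested T and NK cell genes had a median of 0.59, with 4 higher and none lower at an unadjusted p under 0.05 (limma), and a median of 1.35 in WT but 0.16 in KO. In adenoma the median age difference of this list was 0.84.

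B cell genes shifted oppositely in the genotypes, with a median of 0.42 in WT and -1.21 in KO, and none of 14 passed an unadjusted p of 0.05 (limma). Cd79a, a chain of the B cell receptor, was at 5.57 and 24.8 FPKM at 3 months and at 11.6 and 5.02 FPKM at 4 months. Summed, the B cell list came to 22.7 in WT and 96.3 FPKM in KO at 3 months and 41.9 and 26.2 FPKM at 4 months, and that of the plasma cell list was 1712 and 5064 FPKM and then 3575 and 3184 FPKM. In both lists the KO library of 3 months was the highest.

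Of 10 tested neutrophil and monocyte genes, 4 were lower and none higher at an unadjusted p under 0.05 (limma). Of these, S100a8 and S100a9, calcium-binding proteins of these cells, were lower at 4 months. S100a8 was at 63.1 and 25.1 FPKM at 3 months and at 17.3 and 10.1 FPKM at 4 months, and S100a9 at 96.2 and 34.4 FPKM and then at 27.2 and 16.5 FPKM. The WT library of 3 months was the highest for both. In the adenoma libraries of 3 and 4 months S100a8 was at 375 to 436 FPKM and S100a9 at 534 to 649 FPKM. Ly6g, best known as a neutrophil surface antigen, was at 101 and 362 FPKM at 3 months and at 8.65 and 6.63 FPKM at 4 months (difference -4.49, SE 0.55). The neutrophil receptor gene Csf3r stayed under 1 FPKM in all 4 libraries and the granule gene Ngp had 0 reads in all 4.

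**Figure D4:**
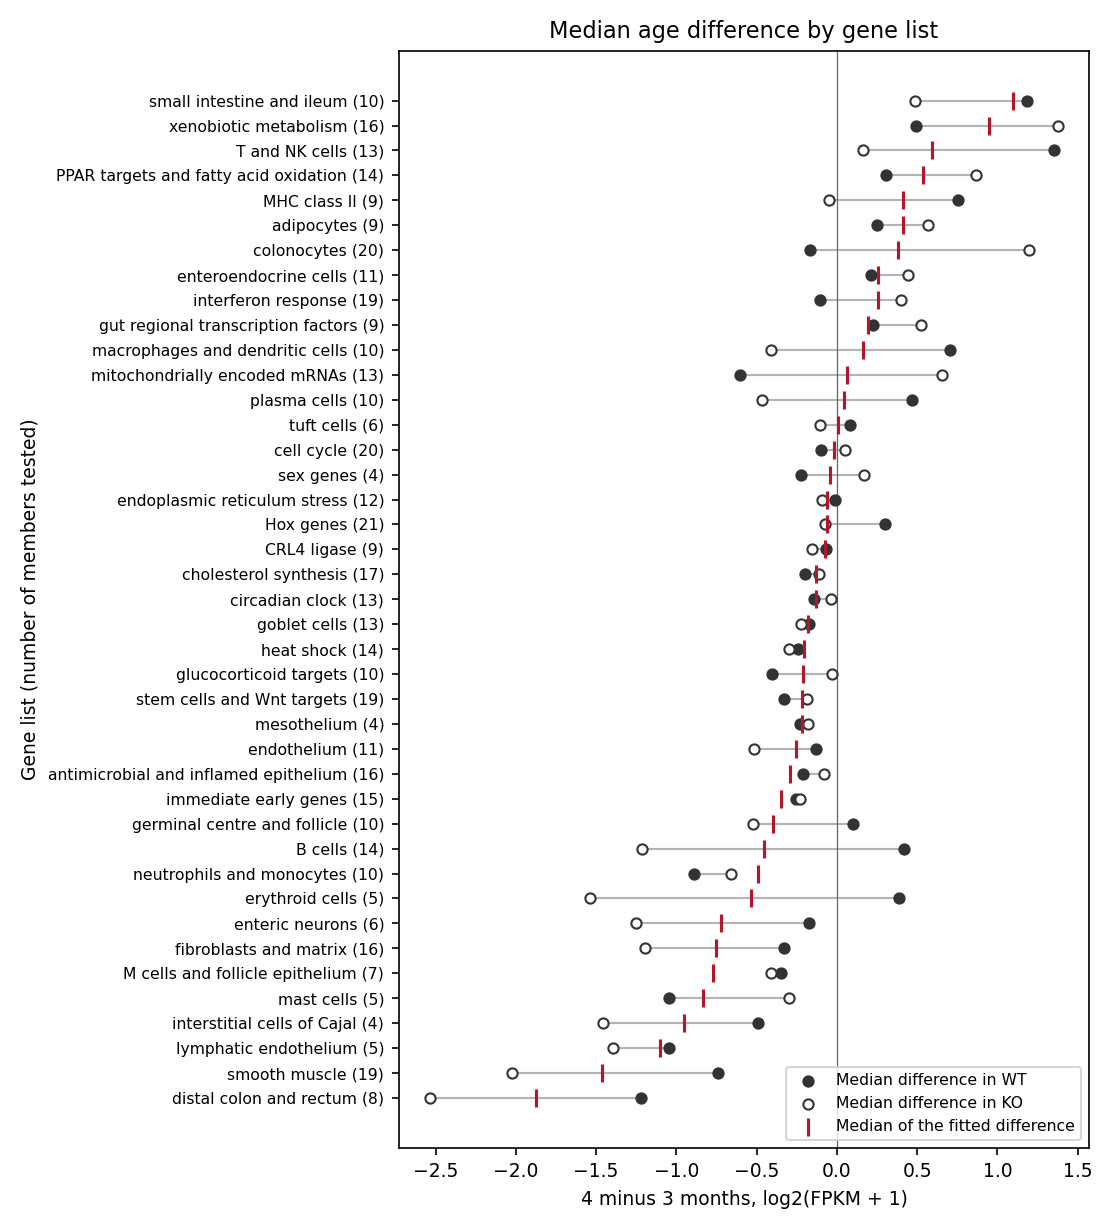
Median age difference (4 minus 3 months, log2 of FPKM + 1, x axis) of each gene list with at least 4 tested members (y axis, number tested in brackets), in WT (filled), in KO (open) and in the fit of both (red bar). Distal colon and smooth muscle lists lie lowest (-1.88 and -1.46) and small intestine and xenobiotic lists highest (1.10 and 0.95). Several lists have opposite signs in WT and KO, among them the B cell, plasma cell, erythroid, macrophage, mitochondrial and colonocyte lists.

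The 20 cell cycle genes had a median of -0.02, with none at an unadjusted p under 0.05 (limma), and the 13 tested circadian clock genes had a median of -0.13, with 1 lower (Per1, difference -0.51) and none higher. Of 10 tested glucocorticoid targets, 4 were lower and none higher at an unadjusted p under 0.05 (limma), with a median of -0.21. Tsc22d3, which encodes the leucine zipper protein GILZ, was at 16.3 and 15.85 FPKM at 3 months and at 8.197 and 7.53 FPKM at 4 months. Ddit4, an inhibitor of mTOR signaling, was at 46.4 and 46.9 FPKM and then at 25.1 and 24.2 FPKM. At the same threshold, of 15 tested immediate early genes 2 were lower, of 14 heat shock genes 1 was lower, and of 12 endoplasmic reticulum stress genes and 17 cholesterol synthesis genes none passed in either direction. Of 19 tested stem cell and Wnt target genes, 3 were lower at that threshold. The WT library of 3 months was the highest for the Wnt feedback inhibitors Notum (5.03 and 1.59 FPKM, then 1.14 and 1.08 FPKM), Nkd1 (5.79 and 2.26 FPKM, then 0.865 and 1.20 FPKM) and Wif1 (19.0 and 6.21 FPKM, then 5.98 and 6.31 FPKM). In the adenoma libraries of 3 and 4 months Notum was at 31.1 to 45.5 FPKM and Nkd1 at 30.5 to 87.8 FPKM. Reads of mitochondrially encoded genes were 12.7% in WT and 7.58% in KO at 3 months and 9.13% and 8.82% at 4 months, and the 13 mRNAs had a median of -0.60 in WT and 0.65 in KO. mt-Co1 was at 50113 and 25184 FPKM at 3 months and at 36130 and 39634 FPKM at 4 months.

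Adenomas of the same strain, genotypes and ages, 4 libraries of the same table, served to ask whether the age difference belonged to N. The test was the difference between the age terms of N and T in 1 limma fit of 8 libraries, with 15281 genes tested and 2 residual degrees of freedom. At an adjusted p under 0.05 (limma with Benjamini-Hochberg adjustment), the age difference was higher in N for 952 genes (6.23%) and lower in N for 1611 (10.5%). In T itself, 3470 genes (22.7%) were higher and 2505 (16.4%) lower at 4 months, so a difference between N and T can come from either tissue. Both counts were 0 without the KO library of N at 3 months or at 4 months or without any 1 adenoma library; they were 1085 and 1401 without the WT library of N at 3 months and 1056 and 1360 without that at 4 months.

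Several Hox genes differed between the tissues in their age difference. Hoxa13 was at 8.91 and 8.26 FPKM in T at 3 months and 10.9 and 11.8 FPKM at 4 months, so its age difference was 0.37 in T and -2.68 in N, a difference of -3.05 (SE 0.25; limma with Benjamini-Hochberg adjustment, adjusted p = 0.0249). Hoxb6 was at most 0.233 FPKM in the 4 adenoma libraries, and its age difference was higher in N by 3.80 (SE 0.47, adjusted p = 0.0260). A gene near 0 FPKM in T at both ages can hardly differ there on this scale. Its contrast repeats the difference in N and cannot tell whether that difference belongs to N. Hoxb13 was at 41.0 and 28.2 FPKM in T at 3 months and 64.4 and 57.2 FPKM at 4 months, and its difference was lower in N by -4.53 (SE 0.72, adjusted p = 0.0313). At both ages adenomas held higher FPKM of Hoxa13 and Hoxb13 than of Hoxb6, as did N at 3 months, while N at 4 months had the reverse order.

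The same held for several products of the epithelium and muscle wall. Slc51a was at most 0.197 FPKM in the 4 adenoma libraries, and its age difference was higher in N by 4.36 (SE 0.57, limma with Benjamini-Hochberg adjustment, adjusted p = 0.0275). As for Hoxb6, this contrast repeats the difference in N. Reg3b went opposite ways, from 170 and 160 FPKM to 23.1 and 48.2 FPKM in T, a difference of -2.27 against 3.94 in N (adjusted p = 0.0467). Atp12a was at 5.69 and 2.69 FPKM in T at 3 months and 25.9 and 11.4 FPKM at 4 months, a difference of 1.88 against -4.33 in N (adjusted p = 0.0304). Of the muscle genes, Des and Cnn1 differed between the tissues by -3.90 and -3.31 (limma, adjusted p = 0.0435 and 0.0390). Actg2 (-3.61, adjusted p = 0.0503) and Myh11 (-2.23, adjusted p = 0.0562) did not pass in the same fit, nor did Acta2, Myl9 and Tpm2. Gzma, higher by 1.32 in T and by 1.88 in N, did not pass either (adjusted p = 0.386).

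**Figure D5:**
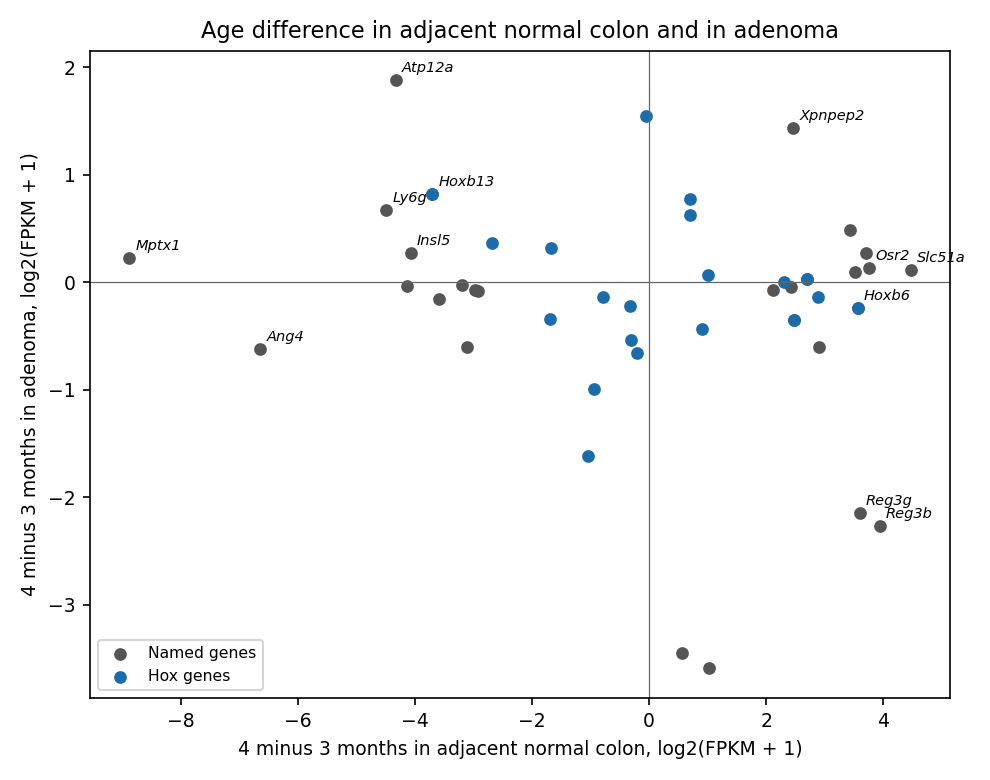
Age difference (4 minus 3 months, log2 of FPKM + 1) in adjacent normal colon on the x axis and in adenoma on the y axis for the genes with the largest differences (grey) and the tested Hox genes (blue), 1 point per gene. Most points lie along the horizontal axis, as Mptx1 (-8.88 in N and 0.22 in T) and Slc51a (4.47 and 0.11), while Reg3b and Reg3g have opposite signs in the tissues. Genes near 0 FPKM in adenoma, such as Slc51a and Hoxb6, can hardly leave that axis.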

How the data were processed

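Total RNA of colon adenoma and adjacent normal colon was sequenced by the authors. The deposited values were FPKM for 52636 genes, in 1 table for 3 and 4 months and another for 5 months, beside a column of gene lengths that the authors deposited, whose unit is bases, other than FPKM. Per the submitters' processing notes, mm10, StringTie, featureCounts 1.5.0-p3 and DESeq2 were used; the aligner is not given in the sources used here, nor the strand setting. FPKM times gene length gave whole reads in 100% of values (tolerance 0.01 read), and the implied library totals were 0.798 to 0.915 times the reads in genes in the 4 libraries of N.

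Genes that averaged 0.5 FPKM or more in the 4 libraries were fitted with limma 3.58.1 (R 4.3.3; lmFit, eBayes with trend) on log2(FPKM + 1), with genotype and age as terms; the method was tested on simulated data. P-values were adjusted by Benjamini-Hochberg over all tested genes. Group lists (45) and the members were chosen with earlier results of these data known. Genes were named by a rule: Cul4b; up to 12 per direction that passed, or else shifted at least 2-fold in both genotypes; 4 per list, with every Hox, distal and clock gene; genes of opposite sign; the most abundant genes; and the 5 largest differences of N against T each way. Hoxb6 over Hoxa13 and other genes chosen after their values were seen are descriptions. Not every gene the rule names is reported. In the table, 99 symbols occurred more than once. Alternatives were other pseudocounts and filters, no genotype term, 8 or 12 libraries, TPM, voom on recovered reads, and single libraries left out.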

Additional observations from a re-analysis of the deposited data

Results flagged for a closer look

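For 49 of the 100 genes named here that were tested, the age difference of 4 against 3 months differed between adjacent normal colon and adenoma (limma with Benjamini-Hochberg adjustment over 15281 genes, adjusted p 0.0249 to 0.0467). Over all 15281 genes, 6.23% were called higher and 10.5% lower in N. Many named genes were picked for a large age difference in N or for passing this test. The 49 of 100 is thus no result about them. For genes near 0 FPKM in T, such as Slc51a and Hoxb6, the contrast repeats the difference in N. Values in brackets are the age difference in N minus that in T, in log2 units. Of the Hox genes, the difference was higher in N for Hoxb6 (3.80), Hoxb8 (2.83), Hoxb4 (2.67), Hoxb5 (2.30) and Hoxd8 (0.95), and lower in N for Hoxb13 (-4.53), Hoxa13 (-3.05), Hoxa10 (-1.99) and Hoxa9 (-1.34). Of transporters, enzymes and other epithelial genes, it was higher in N for Reg3b (6.21), Reg3g (5.74), Slc51a (4.36), Osr2 (3.64), Ces1g (3.51), Slc10a2 (3.43), Vnn1 (2.95), Ces2b (2.47), Naaladl1 (2.44), Enpep (2.19), Isx (2.18), Acaa1b (2.11), Ces2a (1.71), Fabp1 (1.54), Alpi (1.34), Xpnpep2 (1.03) and Chga (0.85). It was lower in N for the distal, goblet and antimicrobial products Mptx1 (-9.10), Atp12a (-6.21), Ang4 (-6.02), Insl5 (-4.34), Clca1 (-2.96) and Fcgbp (-2.91), and for the muscle wall and matrix genes Des (-3.90), Cnn1 (-3.31), Thbs4 (-2.95), Ano1 (-1.98) and Fn1 (-1.83). It was also lower in N for the glucocorticoid targets Ddit4 (-1.91) and Tsc22d3 (-1.24), and for Ly6g (-5.16), Gsdmcl2 (-3.44), Pla2g4c (-3.17), Crisp3 (-2.90), Ear-ps3 (-2.84), Nxpe4 (-2.51), Nkd1 (-2.37), S100a9 (-1.62), S100a8 (-1.37) and Csf3r (-1.005). None of these genes passed the test of 4 against 3 months in N alone, and all of the calls between N and T are lost without either KO library of N or without any 1 adenoma library.

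Opposite age differences in WT and KO were seen for Laptm5, a lysosomal protein of blood cells, and for mt-Co2. Laptm5 was at 5.10 FPKM in WT and 16.7 FPKM in KO at 3 months and at 11.8 and 7.55 FPKM at 4 months, so the age difference in WT exceeded that in KO by 2.11. mt-Co2 was at 1208 and 274 FPKM and then at 347 and 1644 FPKM, and the age difference in WT minus that in KO was -4.38; nuclear copies of mitochondrial genes can share its reads. With 1 library per genotype and age, neither difference between the genotypes was tested. They were among 22 genes of opposite sign, each by at least 2-fold, of which 7 were neither predicted genes nor immunoglobulin or receptor segments.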

How the results depend on the processing

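The test of 4 against 3 months in N called 0 genes higher and 0 lower with a pseudocount of 0.1 or 5 FPKM and with no filter. It also called 0 each way on TPM whose total left out mitochondrial, immunoglobulin and T cell receptor genes. Those genes stayed in the test. It called 35 higher and 56 lower with a filter at a mean of 5 FPKM, 32 and 39 on TPM computed from the FPKM, 57 and 102 with voom on the recovered reads, 5 and 6 with 8 libraries, and 19 and 27 with 12 libraries; without 1 library of N in turn, the 8-library fit called 0 genes each time. With no replicate block (no genotype term) the counts were 6 and 11. The pairing is by genotype, not by animal, and the WT minus KO difference at 3 months correlated with that at 4 months by -0.0958 over genes. The count of genes at least 2-fold apart in both genotypes (86 and 108) was 46 and 62 with a pseudocount of 5 FPKM, all of them among the 86 and 108. Without 1 genotype it ranged from 165 to 366 higher and from 193 to 343 lower, the lower values with WT and the upper with KO alone. The test of N against T (952 and 1611) gave 1715 higher and 2507 lower with no replicate block and 510 higher with the filter at 5 FPKM, and from 0 to 1085 higher and from 0 to 1401 lower without 1 library; the cause was not tested. Of 1386 results of the 101 named genes under the alternatives, 1214 kept direction and side of the threshold, 152 passed where the comparison of 4 libraries did not, and 20 changed sign, none of them called; 50 genes passed in at least 1 alternative. The sign changed without either KO library of N in the 8-library fit for Cul4b (0.11), Hoxd13 (0.30), Muc2 (-0.17), Cd79a (0.94), mt-Co1 (-0.47) and mt-Co2 (-1.80). It changed without either WT library of N for Wif1 (0.019) and Laptm5 (-1.05). For Laptm5 it also changed with a pseudocount of 5 FPKM (-0.029), on TPM (-0.023) and with voom (-0.010). The same held on TPM whose total left out mitochondrial, immunoglobulin and T cell receptor genes (-0.047). Count models of edgeR and DESeq2 were not run, since the deposited unit is FPKM. Genes under the floor of 0.0774 to 0.0922 FPKM (3 reads, 2 kilobases) cannot be compared at this depth.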
